A study of Mus musculus with 4 samples.

Results

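The genes described here are the nuclear genes for the subunits of the mitochondrial respiratory chain and of ATP synthase, as measured by RNA-seq in libraries labelled as mouse liver. They were taken by symbol from the deposited expression table: symbols that begin with Nduf followed by the letter a, b, c, s or v and a number (complex I), Sdha to Sdhd (complex II), Uqcr (complex III), Cox with a subunit number from 4 to 8 and a letter (complex IV) and Atp5 (complex V, the ATP synthase), together with Cyc1, which belongs to complex III, and Cycs, the carrier cytochrome c. The rule found 83 of the 15500 listed genes, namely 37 of complex I, 4 of complex II, 9 of complex III, 15 of complex IV, 17 of complex V and 1 for cytochrome c. Male Kunming mice, an outbred stock, were bought at 5 weeks of age, kept on chow for a week and then placed in 4 groups of 6. The Vehicle group ate chow with 1.5% linoleic acid, the CLA group ate chow with 1.5% conjugated linoleic acid (CLA, a mixture of isomers of that fatty acid), and the treatment lasted 28 days. The GW6471 group ate the linoleic acid chow and received a daily injection of GW6471, an antagonist of the lipid-sensing nuclear receptor PPARα, at 20 mg per kg, and the CLA+GW6471 group ate the CLA chow and received the same injections. The study set out to ask how the CLA diet alters gene expression in liver and how that depends on the PPARα antagonist, and the tissue label is checked below. Each group was represented by 1 library, and whether that library held 1 liver or a pool of the 6 was not stated in the labels or methods. There was no replicate error, so the differences below describe these libraries and no test between conditions was made.

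The respiratory chain sits in the inner mitochondrial membrane. Complexes I and II pass electrons from NADH and succinate to ubiquinone, complex III passes them on to cytochrome c, and complex IV hands them to oxygen, while complexes I, III and IV pump protons across the membrane. ATP synthase lets the protons flow back and makes ATP, and in the liver this pays for gluconeogenesis and ureagenesis, while the oxidation of fatty acids supplies much of the reducing power that enters the chain. Most subunits are encoded in the nucleus and a few in the mitochondrial genome, so the complexes are assembled from products of both. Transcripts of the mitochondrial genome are not analysed here.

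Depth was estimated from the steps between low values at 18800000 to 19300000 reads per library, and the FPKM (fragments scaled by transcript length and by the mapped fragments of the library) summed to 497015 to 522893. The tissue label was checked against a list of 20 hepatocyte genes, of which 15 had a row and 10 of those had a mean FPKM under 1. Albumin (Alb) was abundant, with 679.53 in Vehicle and 1321.55 in CLA, then 1067.32 with GW6471 and 620.17 with both treatments. By contrast, Cps1, an abundant urea cycle enzyme of liver mitochondria, was between 0.01 and 0.03, and Cyp2e1 and Ttr were at or below 0.1 in every library. Sprr1a, a cornified envelope gene of squamous epithelium, had 15810.18 to 26115.83, and 2 of the 4 genes of the squamous list were under 1. These values go against the tissue label, so the libraries are named below by their treatments and nothing is said of hepatocytes. The gene number, the transcripts and the symbol of each of the 83 rows belonged to the same gene in RefSeq, and over the whole table the transcripts belonged to the gene number in all 15428 rows that could be compared, and the symbol in 15294 of 15470. Why the liver genes were low was not tested. Where 4 values stand in a row they follow the order Vehicle, CLA, GW6471 and CLA+GW6471. The squamous list summed to 19048.7, 15814.5, 18798.0 and 26118.8, the hepatocyte list to 1006.5, 1866.7, 1524.7 and 933.6 and the cholangiocyte list to 457.6, 641.3, 528.0 and 386.4. Each sum was carried largely by 1 gene, and nearly all of the squamous sum was Sprr1a. Most of the hepatocyte sum was Alb, and the plasma protein genes Trf (221.83, 351.19, 316.42 and 219.56 FPKM) and Fgb (45.22, 138.03, 86.43 and 35.68 FPKM) and the lipoprotein gene Apob (2.71, 3.93, 3.81 and 2.28 FPKM) had the same order, highest in CLA and lowest with both treatments. Hnf4a, a transcription factor of hepatocytes, was instead highest in Vehicle with 54.53, 47.31, 47.23 and 51.84 FPKM. In the cholangiocyte list Spp1 had 372.04, 574.44, 452.82 and 301.97 FPKM, whereas Sox9 ran the other way with 54.74, 34.72, 48.67 and 57.05 and Krt7 had 23.47, 23.14, 18.43 and 18.84. All 4 endothelial genes were under 1 FPKM, as were 4 of the 5 stellate and fibroblast genes, the exception being Dcn with 1147.76 to 1506.01. The macrophage list, mostly Cd68, summed to 24.4, 36.9, 25.9 and 25.2 and so was also highest in CLA. The muscle list summed to at most 0.5 and the red blood cell list to at most 2.1. Several of these genes differed between the libraries, as did the genes described below, and their part in the results was not tested. In whole tissue, fewer cells of a type and less RNA per cell cannot be told apart.

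A promoter, here the 250 bases before and the 50 after a transcription start (RefSeq, GRCm38.p6), was on hand for 67 of the 83 genes, of which 6 had 2 starts. The sequences below belong to 3 complex I genes with large differences between Vehicle and CLA, to the complex IV gene with the highest level, to the ATP synthase stalk gene Atp5c1 (1 of its 2 starts) and to Cycs, which went the other way. Capitals mark 2 sets of letters, searched on both strands: GCGCA and GCGC with any 1 base between them, the palindromic site of nuclear respiratory factor 1 (NRF1), and CCGGAAG, the core of ETS sites as used by GABP (nuclear respiratory factor 2). The windows are chr17:31519865-31520164 on the plus strand for Ndufv3, and on the minus strand chr15:82354242-82354541 for Ndufa6, chr2:90904672-90904971 for Ndufs3, chr5:115348909-115349208 for Cox6a1, chr2:10080383-10080682 for Atp5c1 and chr6:50566520-50566819 for Cycs.
Ndufv3: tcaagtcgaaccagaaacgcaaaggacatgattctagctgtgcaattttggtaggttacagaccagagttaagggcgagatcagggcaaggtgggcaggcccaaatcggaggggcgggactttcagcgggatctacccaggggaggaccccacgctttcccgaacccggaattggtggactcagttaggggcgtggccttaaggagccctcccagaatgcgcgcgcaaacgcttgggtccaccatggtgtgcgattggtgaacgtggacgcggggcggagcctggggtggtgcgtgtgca
Ndufa6: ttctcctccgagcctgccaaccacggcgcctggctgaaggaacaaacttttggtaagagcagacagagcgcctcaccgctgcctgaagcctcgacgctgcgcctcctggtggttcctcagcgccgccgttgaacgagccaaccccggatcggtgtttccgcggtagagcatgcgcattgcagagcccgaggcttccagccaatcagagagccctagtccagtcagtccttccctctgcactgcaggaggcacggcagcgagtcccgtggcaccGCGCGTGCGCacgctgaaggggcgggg
Ndufs3: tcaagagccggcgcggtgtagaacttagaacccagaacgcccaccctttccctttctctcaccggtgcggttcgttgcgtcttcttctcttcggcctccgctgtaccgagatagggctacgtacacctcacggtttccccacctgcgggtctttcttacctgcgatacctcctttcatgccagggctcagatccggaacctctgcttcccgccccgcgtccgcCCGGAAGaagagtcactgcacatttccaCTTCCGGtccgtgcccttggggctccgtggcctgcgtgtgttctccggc
Cox6a1: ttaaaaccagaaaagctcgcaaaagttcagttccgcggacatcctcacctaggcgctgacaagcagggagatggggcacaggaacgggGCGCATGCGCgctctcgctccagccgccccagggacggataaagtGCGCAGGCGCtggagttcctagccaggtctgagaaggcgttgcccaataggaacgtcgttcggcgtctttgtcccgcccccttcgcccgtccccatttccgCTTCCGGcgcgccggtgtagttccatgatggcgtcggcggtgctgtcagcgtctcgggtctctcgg
Atp5c1: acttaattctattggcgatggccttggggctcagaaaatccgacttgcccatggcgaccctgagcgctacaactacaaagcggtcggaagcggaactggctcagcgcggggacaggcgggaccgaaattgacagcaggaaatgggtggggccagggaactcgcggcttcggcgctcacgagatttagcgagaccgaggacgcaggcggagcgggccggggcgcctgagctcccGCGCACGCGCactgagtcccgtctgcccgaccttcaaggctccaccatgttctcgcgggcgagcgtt
Cycs: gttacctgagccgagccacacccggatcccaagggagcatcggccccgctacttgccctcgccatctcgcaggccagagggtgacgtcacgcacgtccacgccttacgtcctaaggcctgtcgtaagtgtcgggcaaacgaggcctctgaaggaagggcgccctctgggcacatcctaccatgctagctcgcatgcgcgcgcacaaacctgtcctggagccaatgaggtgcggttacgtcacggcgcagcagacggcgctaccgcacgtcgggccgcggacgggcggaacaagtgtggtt

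The NRF1 letters stood once in the Ndufa6 window and in the Atp5c1 window shown, but not in the window of the other Atp5c1 start (chr2:10080461-10080760, minus strand), and in 2 places in that of Cox6a1, which also held the ETS letters. The Ndufs3 window held the ETS letters in 2 places, once on each strand, and those of Ndufv3 and Cycs held neither. Over the 67 genes, whatever their level, the NRF1 letters occurred in 17 (25.4%). They occurred in 12.7% of the 8414 listed genes with a promoter and a mean FPKM of at least 1. Over all 27025 genes with a promoter, the share was 5.19%. The ETS letters occurred in 16 (23.9%), close to the 22.4% of those listed genes and above the 9.93% of all genes with a promoter. The YY1 letters AAGATGG were found in 12 (17.9%, against 8.9% and 7.28%), and the letters of estrogen-related receptors, AAGGTCA, in 8 (11.9%, against 3.71% and 5.38%). The direct repeat of AGGNCA with 1 base between the copies, the form bound by PPARα with RXR, was found in none of the 67 genes. Of those listed genes 0.297% had it, and of all genes with a promoter 0.451%. The GC box GGGCGG was in 27 windows (40.3%, against 71.3% and 38.2%) and TATAAA in 5 (7.46%, against 8.25% and 15.7%). By complex, the NRF1 letters were in 7 of 32 windows of complex I, 2 of 3 of complex II, 1 of 5 of complex III, 1 of 10 of complex IV and 6 of 16 of complex V. A match of letters describes the sequence and is not a bound site. Only exact letters were searched, so a window without them can still hold a related sequence. The Cycs window, for example, holds a run that differs from the NRF1 letters by 1 base.

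The genes were abundant. Of the 83, 79 had a mean FPKM of at least 1 over the 4 libraries, as did 10355 of all genes, and their median level was 87.0 FPKM, against 14.3 over those 10355 genes. The 4 genes below that mean were Cox7a1, Cox4i2, Cox8c and Ndufa4l2, all alternative isoforms. Per complex, the median of the mean levels was 56.3 FPKM in complex I, 60.7 in complex II, 118.7 in complex III, 239.3 in complex IV and 123.8 in complex V, over the genes above that mean. Complexes II and III were narrow, with 3.0-fold and 3.1-fold between their highest and lowest gene. Complex I spanned 15.2-fold, complex IV 388.6-fold and complex V 274.7-fold. The lowest genes were Cox6a2 in complex IV and Atp5s, which is no subunit, in complex V.

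In the CLA library most of these genes were slightly higher than in Vehicle. The median ratio over the 79 genes was 0.15 on the log2 scale (with 0.1 FPKM added before logs), against -0.01 over all genes, and 63 of 79 (79.7%) were higher, where 48.9% of all genes were. The differences were small. At 1.2-fold or more, 33 genes were higher and 1 was lower, against 22.3% and 21.7% of all genes. At 1.5-fold or more, 3 were higher (all genes 7.3%) and none lower (all genes 4.95%). The CLA library had the highest value of the 4 for 55 of the 79 genes (69.6%), against 34.7% of all genes without ties and 51.0% of the other genes with a transcript under 1000 nt. Scaling the libraries to the same FPKM sum left 62 of 79 genes higher. Against the 95% counting interval of each gene, which depends on its level and length, 49 of the 79 lay above 0, 7 below and 23 held 0, where 32.1% of the 9762 genes with a known length lay above and 33.5% below.

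**Figure D1:**
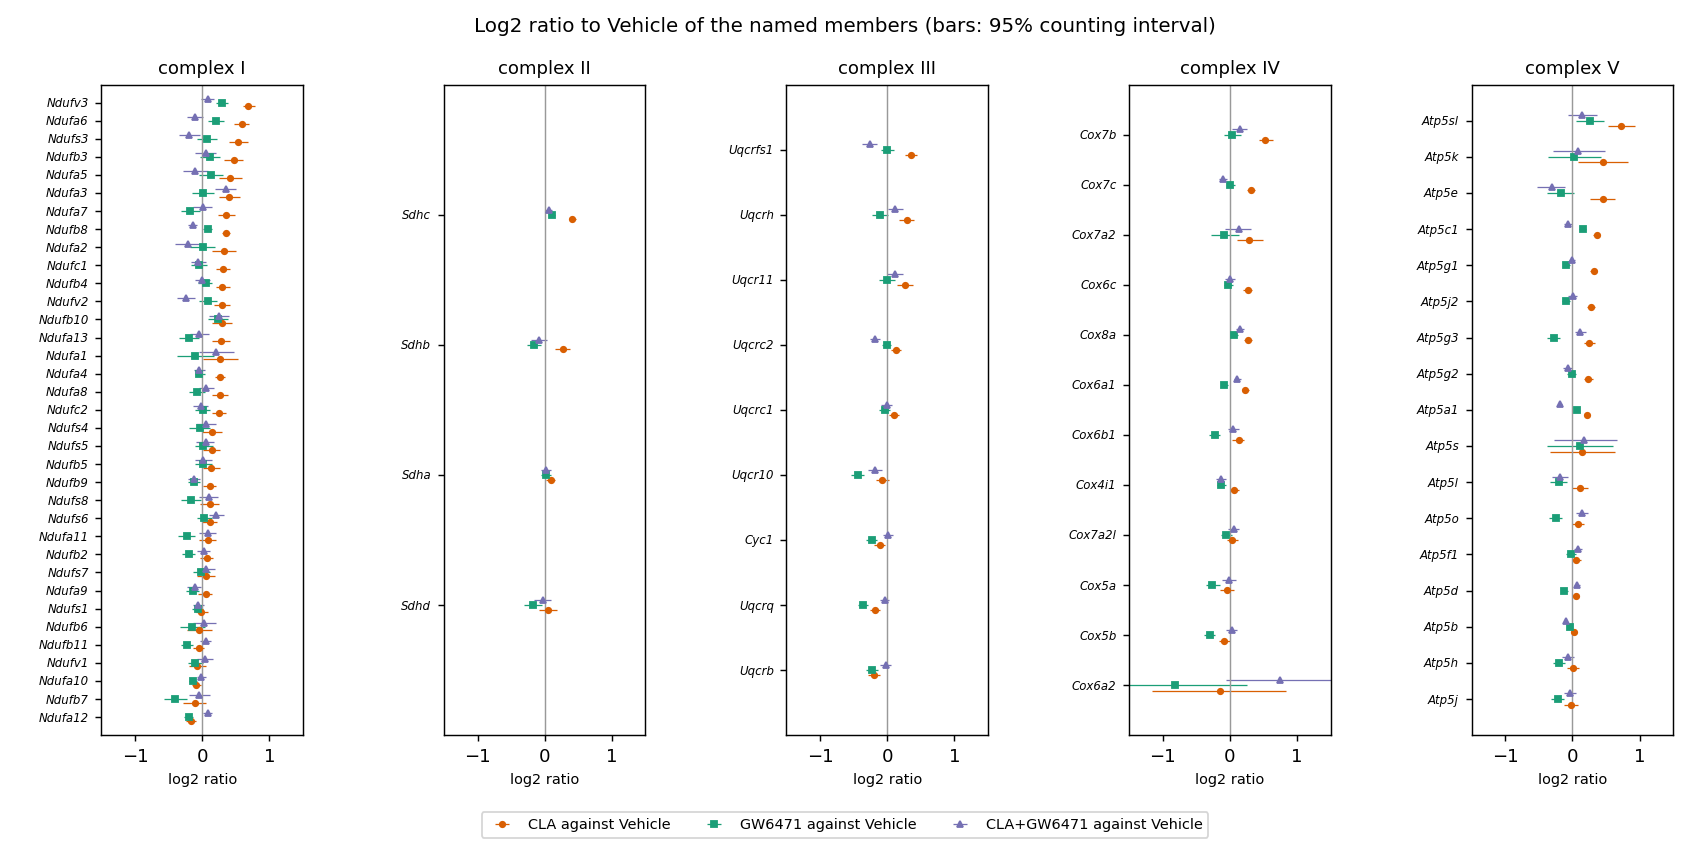
Log2 ratio to Vehicle of 77 of the 78 genes of complexes I to V with a mean FPKM of at least 1, in CLA (circles), GW6471 (squares) and CLA+GW6471 (triangles), with 95% counting intervals as bars and genes ordered by the CLA ratio within each complex. In CLA the points lie mostly right of 0, up to 0.72 for Atp5sl, while those of GW6471 and CLA+GW6471 lie mostly around 0 or left of it, and the bars of Cox6a2 run past the axis.

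Complex I, the NADH dehydrogenase, has a catalytic core whose nuclear-encoded subunits carry the flavin and the iron-sulfur clusters, and a shell of accessory subunits that stabilise it. Of its 36 genes above the minimum mean, 29 were higher in CLA than in Vehicle, with a median log2 ratio of 0.20. The 7 core genes had a median of 0.11 with 5 higher, and the 29 accessory genes 0.26 with 24 higher. The accessory subunit gene Ndufv3 had 61.74 FPKM in Vehicle and 99.87 in CLA, then 76.12 with GW6471 and 65.40 with both treatments. CLA was the highest of the 4, 1.62-fold above Vehicle (log2 0.69, 95% counting interval 0.61 to 0.78). Ndufa6, another accessory subunit, had 100.77, 151.68, 116.42 and 93.76 FPKM in the same order, with a log2 ratio of CLA to Vehicle of 0.59 (0.48 to 0.70). Intervals here and below cover counting error alone and leave out variation among mice. They rest on the longest coding transcript and are too narrow where a shorter one is expressed.

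Among the core genes, Ndufs3, for a subunit of the arm that faces the matrix, had 34.77 FPKM in Vehicle and 50.68 in CLA, then 36.46 with GW6471 and 30.38 with both treatments. Its log2 ratio of CLA to Vehicle was 0.54 (0.40 to 0.69), the largest of the core genes. Ndufv2, for an iron-sulfur subunit beside the flavin, came next with 31.77, 39.01, 33.69 and 26.85 FPKM and a ratio of 0.30. The partner Ndufv1, which binds the flavin and NADH, had 39.86, 37.99, 37.24 and 41.12 FPKM. Its log2 ratios to Vehicle were -0.07 in CLA, -0.10 in GW6471 and 0.04 with both, each with a counting interval that held 0. Ndufs1, which carries several iron-sulfur clusters of the arm, was between 40.31 and 42.11 FPKM in the 4 libraries, and Ndufs7 between 51.23 and 53.89. Ndufs8 had 44.85, 48.52, 39.91 and 48.17 FPKM, with GW6471 the lowest.

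Of the accessory genes, Ndufa4 had the highest level of the Nduf genes, with 290.06 FPKM in Vehicle and 349.42 in CLA, then 282.86 with GW6471 and 282.43 with both treatments. Its product, named after complex I, is now counted as a subunit of complex IV. CLA stood apart from the 3 other libraries, which lay within 282.43 to 290.06. Ndufb9, one of the membrane arm subunits, had 169.38, 182.71, 155.56 and 155.99 FPKM. Among the genes above the minimum mean, Ndufa12 had the lowest ratio of CLA to Vehicle in the complex. It had 153.16, 136.59, 133.27 and 161.67 FPKM (log2 -0.17, -0.24 to -0.09). The lowest ratio of GW6471 to Vehicle belonged to Ndufb7, which had 54.39, 50.25, 41.28 and 53.06 FPKM (log2 -0.40, -0.57 to -0.23).

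Complex II, the succinate dehydrogenase, is also an enzyme of the tricarboxylic acid cycle and has no subunit from the mitochondrial genome. All 4 genes were higher in CLA than in Vehicle, and the median log2 ratio was 0.18. Sdhc, a membrane anchor, had 99.96 FPKM in Vehicle and 132.91 in CLA, then 107.65 with GW6471 and 104.07 with both treatments. Its ratio was 1.33-fold (log2 0.41, 0.36 to 0.46), whereas the other anchor, Sdhd, had 38.59, 40.09, 34.21 and 37.74 FPKM and a ratio of 0.05 (-0.08 to 0.19). The iron-sulfur subunit gene Sdhb had 62.89, 75.76, 56.35 and 59.30 FPKM. The flavin subunit gene Sdha was nearly level, from 56.56 in Vehicle to 60.24 in CLA.

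Complex III, the cytochrome bc1 complex, had the lowest median between CLA and Vehicle of the 5 complexes. The median log2 ratio of CLA to Vehicle was 0.10 and 5 of 9 genes were higher. Uqcrfs1, the Rieske iron-sulfur protein, had 63.52 FPKM in Vehicle and 81.40 in CLA, then 63.67 with GW6471 and 52.99 with both treatments, a CLA ratio of 0.36 (0.26 to 0.45). Cyc1, the heme-bearing cytochrome c1, went the other way with 126.26, 116.96, 107.56 and 127.11 FPKM and a ratio of -0.11 (-0.19 to -0.03). The core proteins Uqcrc1 and Uqcrc2, which hold the complex on its matrix side, had 81.87, 87.52, 79.43 and 81.18 FPKM and 87.75, 95.73, 87.18 and 77.24 FPKM. For 3 small accessory genes, Vehicle was the highest of the 4 libraries, though the counting interval against the next highest library held 0. They were Uqcrb with 220.86, 192.32, 189.10 and 217.09 FPKM, Uqcr10 with 218.90, 207.61, 161.17 and 192.97 FPKM and Uqcrq with 121.24, 106.68, 94.68 and 117.52 FPKM. In CLA against Vehicle, the interval lay below 0 for Uqcrb and Uqcrq and held 0 for Uqcr10. In contrast, the hinge protein gene Uqcrh (112.06, 136.70, 103.70 and 122.17 FPKM) and Uqcr11 (121.03, 146.14, 120.48 and 130.56 FPKM) were highest in CLA, so the genes of this complex were split.

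Cytochrome c itself, Cycs, which carries electrons from complex III to complex IV and triggers apoptosis once released, ran opposite to most of the chain. It had 59.37 FPKM in Vehicle and 43.95 in CLA, then 50.14 with GW6471 and 65.05 with both treatments. CLA was the lowest of the 4 libraries, at 0.74-fold of Vehicle (log2 -0.43, -0.51 to -0.36), and Cycs was the only one of the 79 genes that was lowest in CLA. It was also the only gene below GW6471 in the CLA library (log2 -0.19).

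Complex IV, cytochrome c oxidase, builds on catalytic subunits from the mitochondrial genome, and the nuclear genes here encode the subunits around them. Of the 12 genes above the minimum mean, 9 were higher in CLA than in Vehicle and the median log2 ratio was 0.18. Cox6a1, the general form of subunit 6a, had the highest level of the complex with 611.32 FPKM in Vehicle and 715.99 in CLA, then 577.43 with GW6471 and 660.29 with both treatments. Cox8a had 399.69, 480.39, 416.03 and 442.49 FPKM, and Cox7c had 352.58, 439.81, 356.14 and 328.05 FPKM. In all 3 of these genes CLA was the highest library. The largest ratio belonged to Cox7b, with 59.85, 86.73, 61.52 and 66.24 FPKM, 1.45-fold above Vehicle in CLA (log2 0.53, 0.43 to 0.65). Cox5a and Cox5b, the matrix-side subunits, had 123.78, 120.09, 103.61 and 122.77 FPKM and 254.71, 241.07, 206.62 and 260.14 FPKM. Both were below Vehicle in CLA and lowest in GW6471. Cox4i1 (296.37, 309.04, 271.21 and 270.92 FPKM), Cox6b1 (238.85, 260.81, 204.47 and 248.08 FPKM) and Cox7a2l, a factor of supercomplex assembly (111.98, 115.23, 108.29 and 116.72 FPKM), differed by no more than 1.28-fold between any of the 4 libraries.

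Several complex IV subunits have a general form and a form restricted to certain tissues, such as heart and skeletal muscle, lung or testis. The general forms had the higher levels. Cox6a2, the heart and muscle form, had 1.59 FPKM in Vehicle and 1.42 in CLA, then 0.86 with GW6471 and 2.73 with both treatments, estimated at 20, 18, 11 and 35 reads. The ratio of CLA+GW6471 to GW6471 was 1.56 on the log2 scale, with an interval of 0.64 to 2.78. The intervals of the ratios to Vehicle held 0, at -0.82 (-2.09 to 0.25) for GW6471 and 0.74 (-0.06 to 1.64) for CLA+GW6471. Cox7a1, the muscle form, had 0.15, 1.34, 0.29 and 0.29 FPKM next to 28.21, 34.61, 26.73 and 30.82 FPKM of Cox7a2, and its values rested on an estimated 1, 9, 2 and 2 reads. Cox4i2, the lung form, was listed at 0.15 FPKM in CLA and at 0 elsewhere, and Cox8c, the testis form, at 0.12 in CLA and at 0 elsewhere. Ndufa4l2, the hypoxia-responsive relative of Ndufa4, had between 0.05 and 0.16 FPKM. For these last 3 genes, with at most 3 estimated reads in a library, differences were not detectable at this depth.

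**Figure D2:**
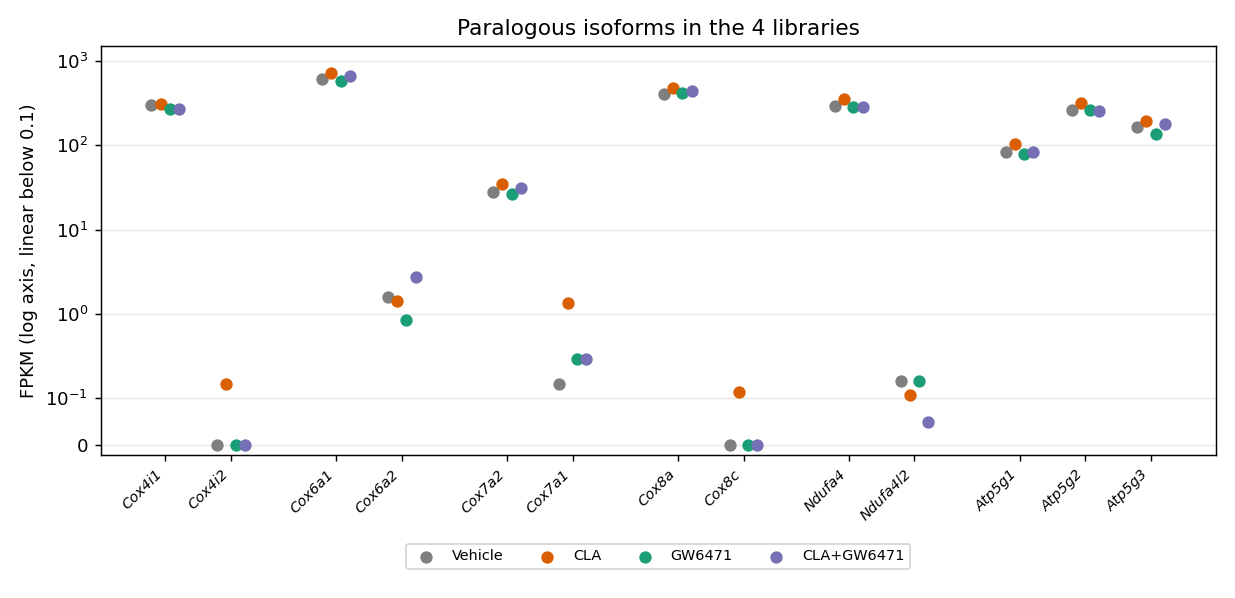
FPKM (log axis, linear below 0.1) of subunit genes with a paralog in the 4 libraries, 1 point per library. The general forms Cox4i1, Cox6a1, Cox7a2, Cox8a and Ndufa4 lie between 26.73 and 715.99 FPKM and their tissue-restricted partners at 2.73 or below, while the 3 genes of the ATP synthase c-ring all lie at 77.67 or above.

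Complex V, ATP synthase, turns on a membrane c-ring and a central stalk inside a catalytic F1 head that a peripheral stalk holds still. In CLA, 16 of its 17 genes were higher than in Vehicle, with a median log2 ratio of 0.22. Without the paralog sets, which hold the c-ring genes, the median fell to 0.13. The catalytic head gene Atp5b had the highest level of all the genes described, with 769.48 FPKM in Vehicle and 786.63 in CLA, then 747.27 with GW6471 and 718.05 with both treatments. Its ratio of CLA to Vehicle was 0.03 and became 0 with the libraries scaled to the same FPKM sum. Its partner in the head, Atp5a1, had 362.89, 421.61, 380.80 and 320.74 FPKM, with a ratio of 0.22 (0.19 to 0.25). The central stalk gene Atp5c1 had 144.39, 185.26, 160.79 and 138.09 FPKM, 1.28-fold above Vehicle in CLA (log2 0.36, 0.30 to 0.41). Atp5e, the smallest subunit of that stalk, had 53.14, 72.76, 47.07 and 42.73 FPKM, with a ratio of 0.45 (0.27 to 0.64). The third stalk gene, Atp5d, was flatter with 297.39, 306.91, 274.26 and 313.17 FPKM.

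The 3 c-ring genes Atp5g1, Atp5g2 and Atp5g3 encode the same mature protein behind different import sequences. They had 82.56, 102.90, 77.67 and 82.44 FPKM, 264.13, 312.68, 261.69 and 251.42 FPKM, and 164.76, 195.57, 135.72 and 179.36 FPKM. All 3 were highest in CLA, with ratios to Vehicle of 0.32, 0.24 and 0.25. The 4 peripheral stalk genes Atp5f1, Atp5h, Atp5j and Atp5o had a median ratio of 0.03 in CLA, the lowest of the parts of the enzyme, and were all below Vehicle in GW6471 (median -0.21). The membrane subunit genes Atp5j2, Atp5k and Atp5l had a median of 0.28 in CLA. Atp5sl, which shares the name but is no subunit of the synthase, had 7.50, 12.42, 8.97 and 8.31 FPKM and the largest ratio of all 79 genes, 0.72 (0.53 to 0.93). Atp5s, also no subunit, had 2.54 to 2.89 FPKM.

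**Figure D3:**
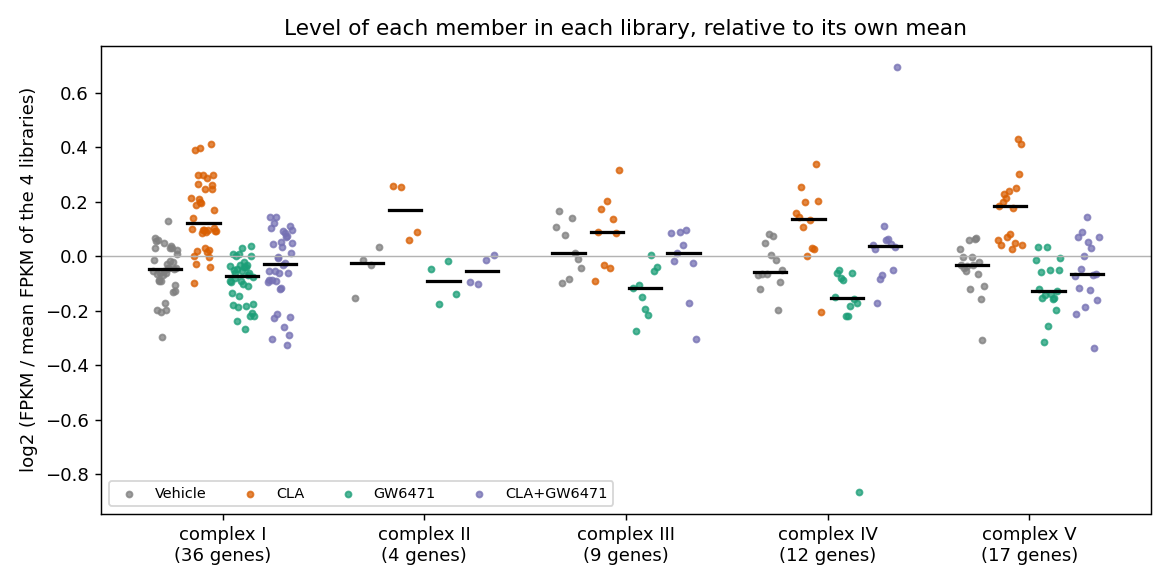
Level of each of 78 genes in each library relative to its own mean over the 4 libraries (log2), grouped by complex, with black bars at the medians. With FPKM as deposited, the median is highest in CLA and lowest in GW6471 in all 5 complexes, and the points far from the others in complex IV, at the top and the bottom, belong to Cox6a2.

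With GW6471 alone, the genes were on the whole slightly below Vehicle. The median log2 ratio was -0.06 against 0.00 over all genes, and 26 of 79 (32.9%) were higher, against 49.2% of all genes. Scaled to the same FPKM sum, 37 of 79 were higher and the median was -0.02. At 1.2-fold, 1 gene was higher (Ndufv3) and 6 were lower, against 14.7% and 14.8% of all genes. At 1.5-fold, none was higher and 1, Cox6a2, was lower, against 3.28% and 2.1%, and the counting interval of Cox6a2 held 0. Of the 79 intervals, 39 held 0, 8 lay above it and 32 below, against 27.6% above and 27.5% below over all genes with a known length. The medians were -0.04 in complex I, which became 0.01 with the same FPKM sum, -0.07 in complex II, -0.11 in complex III, -0.08 in complex IV and -0.09 in complex V. The genes furthest below Vehicle, besides Cox6a2, were Uqcr10 (log2 -0.44, -0.54 to -0.34), Ndufb7 and Uqcrq (-0.36, -0.43 to -0.28). GW6471 had the lowest value of the 4 libraries for 44 of the 79 genes (55.7%), against 20.5% of all genes and 53.8% of the other genes under 1000 nt. It had the highest value for none of the 79 and for 2.8% of those short genes.

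Of the 6 comparisons, CLA against GW6471 had the largest share of genes in 1 direction. In CLA, 78 of 79 genes (98.7%) were higher than in GW6471, against 51.1% of all genes, with a median of 0.26 against 0.01. With the same FPKM sum, 70 of 79 were higher. At 1.5-fold, 2 genes were higher, Atp5e (log2 0.63, 0.44 to 0.82) and Cox6a2 (0.66, -0.43 to 1.96), against 2.15% of all genes, and none was lower, against 1.48%. The intervals of 65 genes lay above 0 and that of 1 below, against 26.7% and 27.2% of all genes with a known length. By complex the medians were 0.26, 0.27, 0.17, 0.30 and 0.26 from complex I to complex V. These libraries differ in diet and in the injection at once.

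With GW6471 added to the CLA diet, most genes were lower than with CLA alone. The median log2 ratio was -0.12 against 0.01 over all genes, and 21 of 79 (26.6%) were higher, against 50.9% of all genes. At 1.2-fold, 2 were higher and 30 lower, against 24.5% and 24.3%. At 1.5-fold, 1 was higher (Cox6a2, all genes 6.84%) and 5 were lower (all genes 9.15%). The 5 were Atp5e (log2 -0.77, -0.96 to -0.57), Ndufs3 (-0.74, -0.89 to -0.59), Ndufa6 (-0.69, -0.81 to -0.58), Uqcrfs1 (-0.62, -0.72 to -0.52) and Ndufv3 (-0.61, -0.69 to -0.53). Cycs was higher by 0.56 (0.49 to 0.64). The intervals of 10 genes lay above 0 and those of 44 below, against 35.0% and 33.8% of all genes with a known length. The medians were -0.14, -0.22, -0.11, -0.12 and -0.27 from complex I to complex V. This comparison shares the CLA library with that of CLA against Vehicle, so the values of both rest on the same CLA measurement.

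Against GW6471 alone, the CLA+GW6471 library was slightly higher, with a median of 0.09 against 0.00 over all genes and 54 of 79 genes (68.4%) higher, against 50.4%. With the same FPKM sum, 44 of 79 were higher with a median of 0.02, and the medians of complexes I and II, 0.03 and 0.04, became -0.04 and -0.03. At 1.2-fold, 14 were higher and 3 lower, against 17.7% and 17.7% of all genes. At 1.5-fold, only Cox6a2 was higher (all genes 2.81%) and none was lower (all genes 3.88%). The intervals of 38 genes lay above 0 and those of 13 below, against 29.1% and 30.4% of all genes with a known length. Among the 14 were Atp5g3 and Atp5o, each with a log2 ratio of 0.40, and Cycs with 0.37, and the 3 that were lower were Ndufv2 (-0.33), Ndufa6 (-0.31) and Uqcrfs1 (-0.26). Against Vehicle the library with both treatments was level, with a median of 0.01 and 42 of 79 genes (53.2%) higher, where 48.8% of all genes were. The counting intervals of 49 of the 79 held 0, with 14 above and 16 below, against 15.1% and 17.3% of all genes with a known length. At 1.5-fold, 1 gene (Cox6a2) was higher and none lower, against 0.512% and 0.628% of all genes.

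The ratio of CLA to its own control can be set side by side without and with the antagonist, since the 4 libraries of these ratios are different. Complex by complex, the medians were 0.20 without and 0.03 with GW6471 in complex I, 0.18 and 0.04 in complex II, 0.10 and 0.20 in complex III, 0.18 and 0.15 in complex IV and 0.22 and 0.07 in complex V. Gene by gene, the ratios lay on opposite sides of 0 for 41 of the 79 genes and for 7558 of 10355 genes overall. Both ratios lay beyond their counting intervals on opposite sides for 20 of the 79 (25.3%), against 40.1% of the 9762 genes with a known length. Of these, 13 were higher without and lower with the antagonist (all genes 20.1%) and 7 the reverse (all genes 20.0%). With the same FPKM sum the numbers were 22 of the 79 and 39.0%. The rank correlation across genes (Spearman) was -0.59 over the 79 and -0.67 over all genes. Genes are not independent replicates, and each ratio has 1 library above and 1 below, so the correlation describes these 4 libraries alone.

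**Figure D4:**
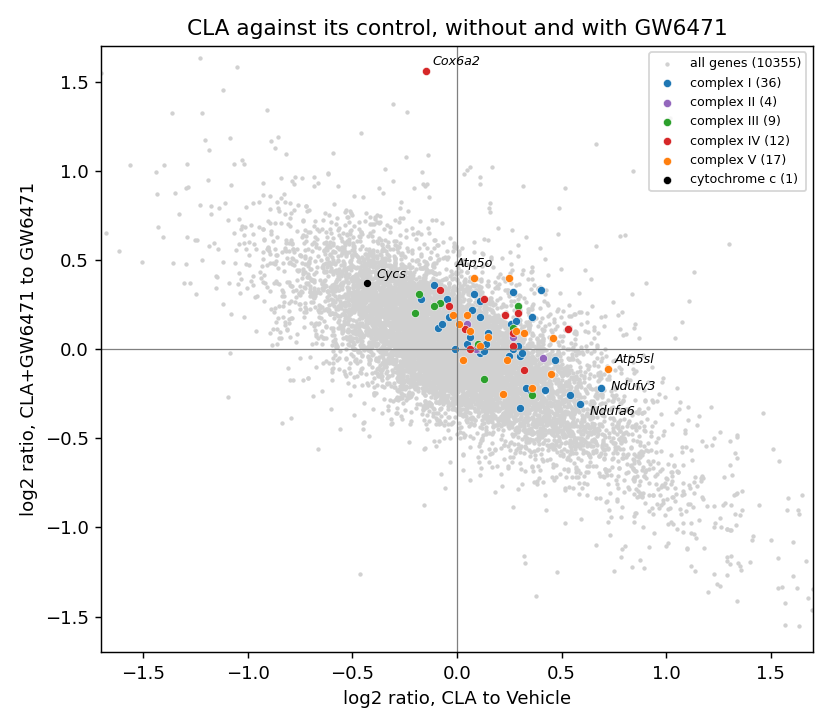
Log2 ratio of CLA to Vehicle (horizontal) and of CLA+GW6471 to GW6471 (vertical) for each gene with a mean FPKM of at least 1, all genes in grey and respiratory chain genes coloured by complex; genes beyond the plotted range are not drawn. Grey and coloured points both slope downward, with Ndufv3, Ndufa6 and Atp5sl at the lower right and Cycs at the upper left.

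These genes have short transcripts, and short transcripts as a class differed between the libraries. The median length was 908 nt (longest coding transcript, GENCODE vM1) against 2902 nt over all genes, and 47 of 83 (56.6%) were under 1000 nt, against 6.6%. Between CLA and GW6471, 83.9% of the 496 other genes under 1000 nt were higher in CLA (median 0.20), while 923 of the 3072 other genes of at least 4000 nt were. The respiratory chain genes under 1000 nt, 43 in number, were all higher (median 0.29). Between GW6471 and Vehicle, 27.4% of the other short genes and 30.2% of the short respiratory chain genes were higher. Between CLA and Vehicle the figures were 60.1% (median 0.07) and 79.1% (median 0.25). In the class next in length, up to 2000 nt, they were 51.8% of 2052 other genes (median 0.01) and 84.0% of 25 respiratory chain genes (median 0.13). Genes for cytosolic ribosomal proteins, short and abundant, were also higher in CLA than in GW6471 in 77 of 77 cases (median 0.19) and lower in GW6471 than in Vehicle in all but 4. Between CLA and Vehicle 54 of the 77 (70.1%) were higher, with a median of 0.03. The part of transcript length in these differences was not tested.

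**Figure D5:**
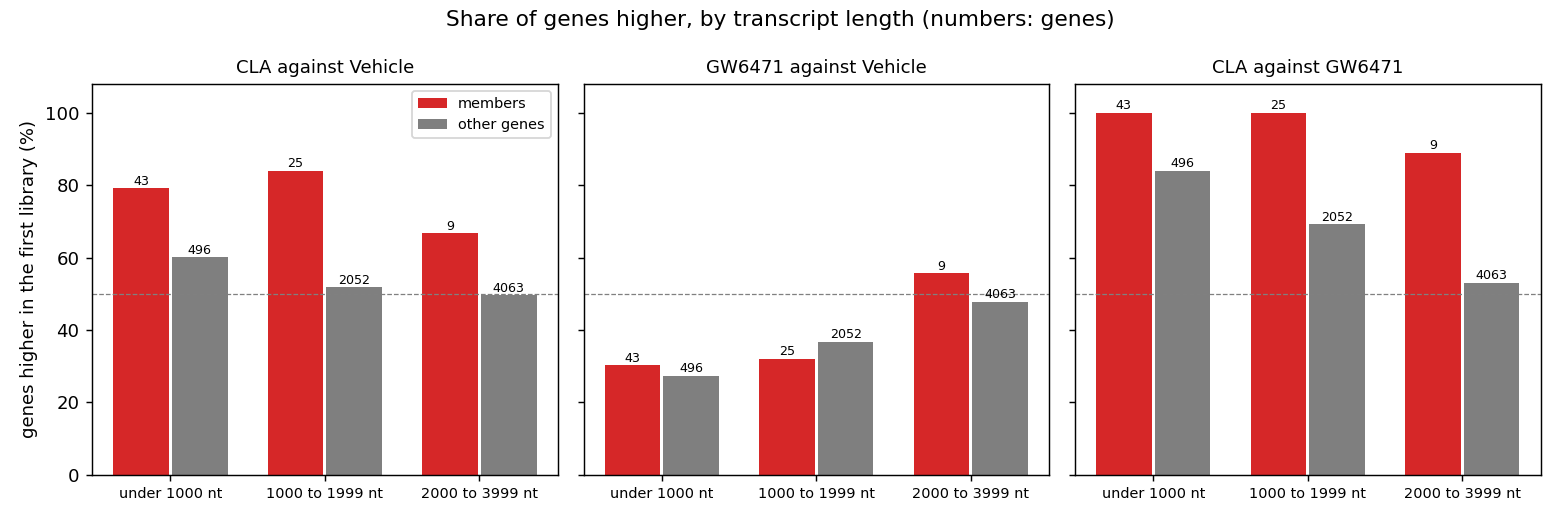
Share of genes (%) higher in the first library of 3 comparisons, for respiratory chain genes (red) and all other genes (grey) in 3 classes of transcript length, with the number of genes above each bar and a dashed line at 50%; 2 longer respiratory chain genes are not shown. In CLA against Vehicle the red bars are above the grey ones in each class, whereas in GW6471 against Vehicle the pairs of bars lie closer together, at 30.2% and 27.4% in the shortest class.

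Respiratory chain genes with the NRF1 letters in the promoter window and those without were set side by side, if their mean FPKM was at least 1. Of the 17 genes with the letters, 17 were higher in CLA than in Vehicle, with a median log2 ratio of 0.23. Of the 49 without them, 38 were higher, with a median of 0.25. Over all genes 48.9% were higher. In GW6471 against Vehicle, 8 of the 17 and 15 of the 49 were higher, against 49.2% of all genes. Other genes with the letters were not compared.

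Other lists of mitochondrial genes had medians near or below 0 between CLA and Vehicle, where 48.9% of all genes were higher with a median of -0.01. Of 13 regulators of mitochondrial biogenesis, 1 was higher in CLA than in Vehicle, with a median log2 ratio of -0.21. It was Ppargc1b, at 0.08 (-0.43 to 0.61). The intervals of Yy1 (-0.02), Polg (-0.02), Polrmt (-0.05) and Tfb1m (-0.21) also held 0. Gabpa (-0.18), Gabpb1 (-0.28) and Tfb2m (-0.31) were lower beyond the interval. Pprc1, a coactivator of nuclear respiratory factors, had 33.18 FPKM in CLA and 43.83 to 51.92 in the other libraries, a CLA ratio of -0.59 (-0.66 to -0.53). It overlaps a coding gene, Ldb1, on the other strand, so its value is uncertain. Nrf1 itself had 20.99, 15.33, 16.81 and 19.57 FPKM (-0.45, -0.57 to -0.34). Tfam, which packages mitochondrial DNA, had 14.07, 12.27, 12.75 and 12.07 FPKM, and Esrra, the estrogen-related receptor α, had 21.97, 18.47, 19.80 and 22.87 FPKM. Ppargc1a, the coactivator PGC-1α, was low at 1.27 to 1.68 FPKM.

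Of 36 assembly factor genes above the minimum mean, 20 were higher in CLA than in Vehicle, with a median of 0.03. At 1.5-fold, 1 was higher, Ndufaf7 (all genes 7.3%), and 4 were lower (all genes 4.95%), all of them for complex IV: the copper chaperone genes Sco2 and Cox11, the heme A synthesis gene Cox10 and the COX1 translation activator Taco1. Sco2 had 26.49, 12.44, 14.31 and 32.65 FPKM, low in CLA and in GW6471 alone (CLA ratio -1.08, -1.36 to -0.83). Cox10 had 11.79, 7.62, 9.93 and 12.49 FPKM. Split after these values were seen, the 15 complex IV assembly genes had a CLA median of -0.07 with 7 higher, and the other 21 assembly genes had 0.06 with 13 higher. The 15 include the 4 lower genes that prompted the split, so their median is not independent of it. Sco2 lies at chr15:89202113-89202880 (NCBIM37) over an exon of Ncaph2 on the other strand, and the strand setting of the quantification was not stated, so its value is uncertain.

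Between CLA and Vehicle, genes for mitochondrial ribosomal proteins had a median of -0.05 with 33 of 76 higher, those of the tricarboxylic acid cycle 0.05 with 8 of 13 higher, and those of coenzyme Q synthesis 0.02 with 5 of 9 higher. The uncoupling protein gene Ucp2 had 168.77 FPKM in Vehicle and 254.78 in CLA, then 203.11 with GW6471 and 164.16 with both treatments, a CLA ratio of 0.59 (0.56 to 0.63). The ADP/ATP carrier gene Slc25a5 had 133.77, 99.68, 106.94 and 125.72 FPKM, a ratio of -0.42 (-0.50 to -0.35). The phosphate carrier gene Slc25a3 and the ATP synthase inhibitor gene Atpif1 were nearly level between CLA and Vehicle, with ratios of -0.01 and 0.01.

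Some values are uncertain because reads can belong to another gene. In GENCODE vM1, 16 of the 83 genes overlap an exon of another coding gene, among them Ndufs3 (chr2:90734791-90744984, NCBIM37) with Kbtbd4 on the opposite strand, Ndufb8 (chr19:44618212-44627321) with Sec31b on the same strand, Atp5o (chr16:91684643-91931932) with Donson on the same strand, and Cox6a2 (chr7:135348950-135349880) with Itgad. Ndufv3 (chr17:31657060-31668266), Ndufa6 (chr15:82180569-82184721), Uqcrfs1 (chr13:30632177-30637231), Atp5e (chr2:174286573-174289606) and Cycs (chr6:50512562-50516537) overlap none.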

How the data were processed

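Total RNA, labelled as from liver, was sequenced as 4 libraries (Illumina TruSeq kit, HiSeq instrument), 1 for each of Vehicle, CLA, GW6471 and CLA+GW6471, and the labels gave the groups. The authors mapped reads to mm9 with BWA and Bowtie and quantified genes with Cufflinks, and deposited a table of 15500 genes with 1 column of values per library. The table names no unit, and the values were taken as FPKM from that workflow; versions, strand setting and gene filter are not given in the sources used here. All columns of the table were used.

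Deposited FPKM were taken to log2 after adding 0.1, and lists were summarised over genes whose FPKM averaged 1 or more. A size of 1.5-fold was called. Without counts no count test was possible, and 1 library per condition allowed no test between conditions. Depth was estimated from the steps between low FPKM of 603 genes under 1000 nt with a single transcript, and FPKM times length and depth then gave approximate reads per gene. The length was that of the longest coding transcript. Where a shorter transcript is the one expressed, the reads are overstated and the interval is too narrow. Atp5g1, for example, was given 4715 nt, and its paralogs Atp5g2 and Atp5g3 647 and 723 nt. The intervals are exact Clopper-Pearson intervals (95%) of the share of 1 library in the reads of a pair. Lengths and overlaps came from GENCODE vM1 (NCBIM37, the assembly behind mm9), and promoters from RefSeq (GRCm38.p6), joined by Entrez number. A value of 0, given for 2749 genes in at least 1 library, can be a failed estimate. The steps were tested on simulated data that used the same lengths. The tools were numpy (version 2.4.6), scipy (version 1.17.1), pandas (version 2.3.3) and matplotlib (version 3.10.9) under Python (version 3.11.15).

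The genes and lists were chosen with earlier results of these data known. Genes could be named if among the 3 highest of their complex, core or catalytic, or an isoform with a paralog. So could the 2 highest or lowest ratios of a complex, genes changed 1.5-fold or near 0, and symbols matched without being a subunit. Of other lists, the 1.5-fold genes, the regulators and the carriers could be named, and not all of them were. A few further genes, such as Uqcrh, Cox5a, Ndufb8 and the peripheral stalk and membrane subunits of ATP synthase, were named after their values were seen. The values of 1 gene enter the counts and medians but are not reported here. CLA+GW6471 against Vehicle, CLA against GW6471, the 1.2-fold size, the length classes, the motifs, the promoters shown and the split of the assembly factors were also chosen after values were seen. Alternatives were a pseudocount of 0.01 or 1, a mean FPKM of at least 5 or no minimum, scaling to the same FPKM sum or by median of ratios, subunits only, and leaving out paralog sets and tissue-restricted isoforms.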

Additional observations from a re-analysis of the deposited data

Results flagged for a closer look

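For 20 of the 79 genes, the ratio of CLA to its control lay on opposite sides of 0 without and with GW6471, each time beyond the counting interval. The values below are the log2 ratio of CLA to Vehicle followed by that of CLA+GW6471 to GW6471. The difference between the pair of ratios was not tested, since each rests on 1 library per condition, and counting error leaves out the difference between animals.

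Higher without and lower with the antagonist were 13 genes. In complex I these were Ndufa6 (0.59 and -0.31), Ndufb8 (0.35 and -0.23), Ndufv3 (0.69 and -0.22), Ndufa2 (0.33 and -0.22), Ndufs3 (0.54 and -0.26), Ndufv2 (0.30 and -0.33) and Ndufa5 (0.42 and -0.23). In the other complexes they were Uqcrc2 (0.13 and -0.17), Uqcrfs1 (0.36 and -0.26), Cox7c (0.32 and -0.12), Atp5b (0.03 and -0.06), Atp5a1 (0.22 and -0.25) and Atp5c1 (0.36 and -0.22). Lower without and higher with it were 7 genes: Ndufa12 (-0.17 and 0.28), Ndufa10 (-0.09 and 0.12), Uqcrb (-0.20 and 0.20), Cyc1 (-0.11 and 0.24), Uqcrq (-0.18 and 0.31), Cox5b (-0.08 and 0.33) and Cycs (-0.43 and 0.37). By the same measure the ratios were opposite for 3914 of the 9762 genes with a known length (40.1%), a larger share than the 25.3% among these 79. With the libraries scaled to the same FPKM sum, chosen after seeing the data, 22 of the 79 were opposite, 18 of them shared with the 20, and Atp5b, with a ratio of CLA to Vehicle of 0, and Ndufa10 were no longer among them.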

How the results depend on the processing

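No paired analysis was possible because each condition had 1 library, so no groups shared 2 replicate numbers. Of the values for all the genes and for each complex under the alternatives, 648 stayed within the limit set for them (1.5 times for a count, 0.1 on the log2 scale for a median, the median half-width of the counting intervals) and 25 moved further. All 288 medians stayed within that 0.1, but 5 changed sign with the same FPKM sum, all of them within 0.04 of 0. For 9 single genes (those that differed 1.5-fold, with Cycs and Atp5b) the limit was the half-width of the gene's own interval, which is wide for Cox6a2, and 210 values stayed within it and 6 moved further. Scaling to the same FPKM sum, which shifts GW6471 by 0.05, gave 1 of 4 complex II genes higher in CLA+GW6471 than in Vehicle, and in GW6471 against Vehicle 3 of 9 higher in complex III and 8 of 17 in complex V. Counted over subunits only, 3 complex V genes were higher in GW6471 than in Vehicle.

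The counts at 1.5-fold were small and changed with the minimum mean FPKM. With no minimum, 6 genes were higher in CLA against Vehicle (8.86% of all genes), 5 in CLA against GW6471 (4.9%), 2 in CLA+GW6471 against Vehicle (3.21%) and 1 in GW6471 against Vehicle (5.2%), while 8 were lower in CLA+GW6471 against CLA (10.5%), 1 against GW6471 (5.74%) and 1 against Vehicle (3.25%). In CLA against GW6471, 1 gene was higher with the minimum mean raised to 5, with the same FPKM sum, with a pseudocount of 1 and without paralog sets (all genes 1.01% to 2.14%). With a mean of at least 5, and without paralog sets, 0 genes were higher in CLA+GW6471 against CLA, GW6471 or Vehicle and 0 lower in GW6471 against Vehicle (all genes 0.232% to 6.83%). A pseudocount of 1 also gave 0 for CLA+GW6471 against Vehicle and GW6471 against Vehicle (all genes 0.27% and 1.02%). The counts that went to 0 consisted of Cox6a2 alone, which these settings leave out or shrink.

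The counting half-width of 0.1 is about as large as many of the differences described, and the intervals leave out variation among mice, which 1 library per condition cannot show.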
